A study of Mus musculus with 33 samples.

Results

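Bivalent domains, stretches of chromatin that carry both H3K4me3 and H3K27me3, were defined in WT mouse embryonic stem cells (mESC) and followed through embryoid bodies (EBs), the aggregates in which stem cells differentiate, at weeks 1, 2 and 3. A bivalent domain here was a WT mESC H3K4me3 domain shorter than 30 kb that overlapped a WT mESC H3K27me3 domain by at least 1 bp. Of 15272 WT mESC H3K4me3 domains, 13850 were shorter than 30 kb, and 4998 of these were bivalent. The WT mESC H3K27me3 list behind this choice covered 959.7 Mb. How many overlaps such a broad list would give by its length alone was not tested. The other 8852 domains under 30 kb carried H3K4me3 without H3K27me3 in WT mESC and are called non-bivalent domains here. Since the WT mESC lists of both marks chose the domains, bivalency in WT mESC is a description and not a result. The series holds ChIP-seq, in which DNA carrying a mark or a bound protein is recovered with an antibody and sequenced, from 33 samples, 17 of WT and 16 of Uhrf1 KO genotype. All cells derived from the E14 mESC line. Stem cells were labelled undifferentiated and kept in serum medium with leukemia inhibitory factor, on gelatin or on feeder fibroblasts, and EBs were labelled as differentiated at week 1, 2 or 3. The labels name no allele other than the Uhrf1 KO, and how many KO clones were used is not given in the sources used here. Lists of enriched regions existed for 25 samples, and each combination of genotype, stage and target held 1 library. No difference could therefore be set against a spread between replicates, and no p-value is given. The ranges given after a value are 95% intervals, by Wilson's method where the value is a share, by Newcombe's where 2 sets of domains differ, and by a normal approximation on paired counts where KO and WT differ at the same domains. They cover counting error over domains only, and neighbouring domains are not independent.

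H3K4me3 is written at promoters by the Set1 and MLL methyltransferases of COMPASS complexes and goes with CpG islands and transcription, while H3K27me3 is written by Polycomb repressive complex PRC2 and goes with gene silencing. In stem cells both marks meet at the CpG-rich promoters of many developmental regulators, which are held at low expression and can later resolve towards H3K4me3 alone in a lineage that uses the gene or towards H3K27me3 alone in lineages that do not. Uhrf1 binds hemimethylated DNA and methylated H3K9, and recruits the maintenance DNA methyltransferase. In bulk ChIP-seq both marks at 1 domain may come from different cells or alleles, and fewer marked cells and less mark per cell cannot be told apart.

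The bivalent domains had a median length of 7.8 kb (interquartile range 5.2 to 13.0 kb), and 73.7% of them lay wholly inside WT mESC H3K27me3 domains. The start of a protein-coding gene lay inside or within 1 kb of 3000 of them (60.0%), which gave 3394 genes, 15.2% of the 22380 protein-coding genes of the annotation. At the length limit, the 30 longest bivalent domains, of 29.9 kb, were bivalent in 20, 16 and 18 cases at weeks 1, 2 and 3 in WT EBs, against 27, 20 and 23 of the 34 domains of 31.2 kb just above it. At the overlap limit, 128 bivalent domains overlapped H3K27me3 by at most 1 bin of 1300 bp, and 19.5%, 39.1% and 46.1% of them carried H3K27me3 at weeks 1, 2 and 3 in WT EBs. Of the 123 non-bivalent domains that lay at most 1 such bin away from H3K27me3, 11.4%, 27.6% and 36.6% did. As a check of the labelled cell type, 19 of 20 annotated pluripotency genes, Pou5f1, Sox2 and Nanog among them, lay on a WT mESC H3K4me3 domain, and Esrrb did not. Of all 22380 protein-coding genes, 8435 lay on no such domain, and of 19 fibroblast genes 8 lay on none. Most genes of any kind thus lay on such a domain, and the count alone does not identify the cell type.

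Sequences at the starts of genes whose domain kept 1 state at all 3 weeks in WT EBs are given as examples. Each runs 5′ to 3′ on the gene's strand, from 270 bases before to 30 bases into the gene, in the NCBIM37 (mm9) build with GENCODE gene starts, and every CpG is in capitals. Ear10, an eosinophil-type ribonuclease gene, and Zfp960, a zinc finger gene, lay on domains that were bivalent throughout. Gm9897 and Arid5b, which encodes a DNA-binding protein, lay on domains with H3K4me3 alone throughout. D6Mm5e lay on a domain with H3K27me3 alone and 1700093K21Rik on a domain with no mark. The windows of Ear10 (chr14:44501195-44501494, minus strand), Zfp960 (chr17:17200807-17201106, plus strand), Gm9897 (chr5:4192090-4192389, plus strand), Arid5b (chr10:67741445-67741744, minus strand), D6Mm5e (chr6:82896626-82896925, plus strand) and 1700093K21Rik (chr11:23421126-23421425, minus strand) held 1, 7, 23, 8, 10 and 0 CpG. The windows of Ear10 and D6Mm5e lay wholly outside their domains, with the gene starts within 1 kb of them. A count at a gene start is therefore not the CpG content of the domain. Over all 22380 promoters the median in such a window was 11 CpG (interquartile range 3 to 22).
Ear10: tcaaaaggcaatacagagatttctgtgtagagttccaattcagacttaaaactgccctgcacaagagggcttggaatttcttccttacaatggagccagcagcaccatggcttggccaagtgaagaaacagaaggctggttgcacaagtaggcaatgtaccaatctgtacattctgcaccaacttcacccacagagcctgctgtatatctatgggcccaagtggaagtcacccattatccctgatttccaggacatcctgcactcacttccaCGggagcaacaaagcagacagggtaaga
Zfp960: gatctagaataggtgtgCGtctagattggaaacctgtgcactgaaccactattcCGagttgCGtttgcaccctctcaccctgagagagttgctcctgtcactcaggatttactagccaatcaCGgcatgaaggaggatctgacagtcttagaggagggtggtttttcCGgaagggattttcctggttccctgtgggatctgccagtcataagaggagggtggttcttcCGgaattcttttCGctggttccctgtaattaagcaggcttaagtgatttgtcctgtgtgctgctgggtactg
Gm9897: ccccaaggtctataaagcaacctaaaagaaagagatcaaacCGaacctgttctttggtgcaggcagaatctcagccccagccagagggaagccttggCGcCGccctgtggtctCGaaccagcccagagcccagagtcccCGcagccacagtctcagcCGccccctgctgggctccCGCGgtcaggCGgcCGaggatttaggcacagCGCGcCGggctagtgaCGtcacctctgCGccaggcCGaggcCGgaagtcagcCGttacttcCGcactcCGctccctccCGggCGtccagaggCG
Arid5b: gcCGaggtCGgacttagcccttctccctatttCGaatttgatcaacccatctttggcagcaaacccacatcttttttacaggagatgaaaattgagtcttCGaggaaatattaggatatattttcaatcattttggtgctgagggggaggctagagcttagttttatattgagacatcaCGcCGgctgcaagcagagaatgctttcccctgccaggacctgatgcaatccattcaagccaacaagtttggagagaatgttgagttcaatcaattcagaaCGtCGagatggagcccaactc
D6Mm5e: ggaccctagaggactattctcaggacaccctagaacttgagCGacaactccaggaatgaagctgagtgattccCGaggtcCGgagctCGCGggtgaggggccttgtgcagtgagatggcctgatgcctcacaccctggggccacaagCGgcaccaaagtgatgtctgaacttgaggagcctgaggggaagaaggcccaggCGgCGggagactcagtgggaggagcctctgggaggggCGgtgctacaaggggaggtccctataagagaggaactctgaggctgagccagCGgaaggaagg
1700093K21Rik: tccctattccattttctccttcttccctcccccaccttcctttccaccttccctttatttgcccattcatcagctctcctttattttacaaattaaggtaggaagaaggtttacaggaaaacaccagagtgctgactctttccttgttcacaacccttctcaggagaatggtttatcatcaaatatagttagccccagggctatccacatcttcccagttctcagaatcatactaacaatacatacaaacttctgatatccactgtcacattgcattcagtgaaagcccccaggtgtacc

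Windows from domains of developmental regulators are also shown, chosen after their values were seen among genes picked by the study itself. Each is the stretch of 300 bases outside annotated exons with the most CpG in its domain, read on the plus strand with CpG in capitals. Otx2, a homeobox factor of the forebrain, had 26 CpG at chr14:49293230-49293529. Neurod1, a basic helix-loop-helix factor of neurons, had 17 at chr2:79296951-79297250. Msx2, a homeobox factor of neural crest and limb, had 34 at chr13:53571269-53571568, and Nkx2-5, a homeobox factor of the heart, had 26 at chr17:26981427-26981726. All 4 domains were bivalent at all 3 weeks in WT EBs. These windows were picked for their CpG, so their counts cannot be set against those at the gene starts above. With exons included, the most CpG-dense 300 bases of these 4 domains held 26, 28, 37 and 42 CpG, in the order given. In the domains of Ear10, Zfp960, Gm9897, Arid5b, D6Mm5e and 1700093K21Rik they held 14, 11, 30, 27, 12 and 8.
Otx2: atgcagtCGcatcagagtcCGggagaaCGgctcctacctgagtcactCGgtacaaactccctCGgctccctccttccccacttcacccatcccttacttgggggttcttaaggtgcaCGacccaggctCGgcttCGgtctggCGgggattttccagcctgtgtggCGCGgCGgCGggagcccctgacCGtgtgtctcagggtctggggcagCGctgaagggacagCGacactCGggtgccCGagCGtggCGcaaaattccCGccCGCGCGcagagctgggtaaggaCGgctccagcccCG
Neurod1: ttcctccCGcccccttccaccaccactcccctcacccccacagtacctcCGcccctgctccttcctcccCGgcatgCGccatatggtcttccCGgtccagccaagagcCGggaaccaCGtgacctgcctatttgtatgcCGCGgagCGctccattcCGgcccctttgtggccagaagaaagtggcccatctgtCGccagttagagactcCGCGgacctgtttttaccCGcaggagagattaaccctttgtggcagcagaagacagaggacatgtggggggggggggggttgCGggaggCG
Msx2: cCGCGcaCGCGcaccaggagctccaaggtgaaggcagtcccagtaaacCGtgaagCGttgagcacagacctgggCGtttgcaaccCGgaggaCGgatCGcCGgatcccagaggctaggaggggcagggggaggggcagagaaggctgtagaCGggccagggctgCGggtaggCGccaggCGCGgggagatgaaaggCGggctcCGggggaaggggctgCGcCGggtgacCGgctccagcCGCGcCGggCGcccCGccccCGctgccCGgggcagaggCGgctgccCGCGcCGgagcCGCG
Nkx2-5: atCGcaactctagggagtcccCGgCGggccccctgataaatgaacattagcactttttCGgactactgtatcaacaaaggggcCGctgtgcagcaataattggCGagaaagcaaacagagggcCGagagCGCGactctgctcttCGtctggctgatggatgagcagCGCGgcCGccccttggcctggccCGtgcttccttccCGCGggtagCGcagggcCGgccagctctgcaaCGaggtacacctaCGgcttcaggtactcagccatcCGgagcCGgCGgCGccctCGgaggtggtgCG

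To ask what became of the bivalent domains on differentiation, each was given 1 of 4 states at each stage by overlap of at least 1 bp with the H3K4me3 and H3K27me3 domains of that genotype and stage. In WT EBs most domains kept H3K4me3, and the share with H3K27me3 was higher at week 3 than at week 1. At week 1, 2067 of 4998 were bivalent (41.4%, 40.0 to 42.7), against a background of 19.2% over all 13850 domains under 30 kb. A further 34.8% carried H3K4me3 only, 7.30% H3K27me3 only and 16.5% neither mark. H3K4me3 was thus present at 76.2% of bivalent domains (background 74.1%) and H3K27me3 at 48.7% (background 22.8%). At week 2, 44.9% were bivalent (43.5 to 46.3, background 20.4%), 35.6% carried H3K4me3 only, 13.3% H3K27me3 only and 6.20% neither. H3K4me3 was then present at 80.5% (background 82.2%) and H3K27me3 at 58.2% (background 27%). At week 3, 59.3% were bivalent (58.0 to 60.7, background 28.4%), 23.5% carried H3K4me3 only, 12.1% H3K27me3 only and 5.0% neither. H3K4me3 was present at 82.9% (background 84.7%) and H3K27me3 at 71.4% (background 34.2%). The H3K27me3 lists differed in breadth, covering 101.3 Mb at week 1, 1165.0 Mb at week 2 and 791.4 Mb at week 3 in WT EBs. When each list was shortened, by falling mean read count, to the covered length of the WT week 1 list, 41.4%, 11.1% and 20.0% of the domains were bivalent at weeks 1, 2 and 3, so the order of the weeks turned.

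**Figure D1:**
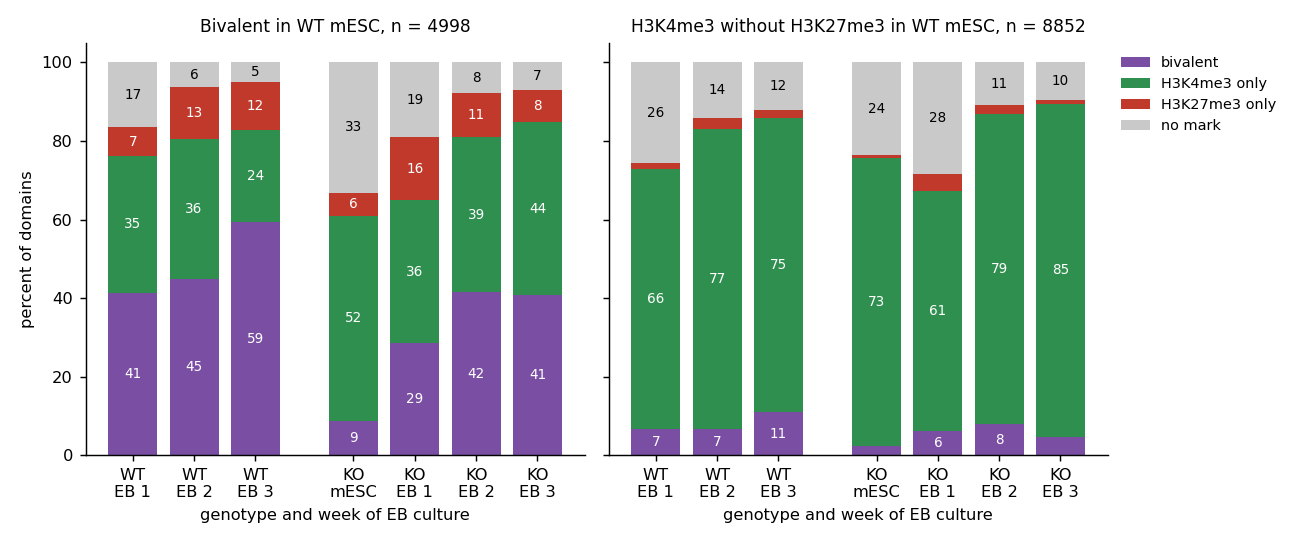
Stacked bars give the percent of domains in each state (bivalent, H3K4me3 only, H3K27me3 only or no mark) for WT EBs at weeks 1 to 3 and for Uhrf1 KO mESC and EBs, at left for the 4998 domains bivalent in WT mESC and at right for the 8852 that were not. The bivalent share at left goes from 41.4% to 59.3% over the WT weeks and is 8.64% in KO mESC. The H3K27me3 list covered 84.07 Mb in KO mESC and 959.7 Mb in WT mESC.

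H3K27me3 set the bivalent domains apart from the non-bivalent domains at every stage, while H3K4me3 in EBs did so far less. The H3K27me3 difference was 11.2 points (10.2 to 12.3) in KO mESC and larger in EBs of both genotypes. In WT EBs H3K27me3 was present at 40.5 (38.9 to 41.9), 48.8 (47.3 to 50.3) and 58.3 (56.8 to 59.7) percentage points more of the bivalent domains at weeks 1, 2 and 3. With the shortened lists the week 3 difference was 20.0 points. H3K4me3 differed by 3.24 points at week 1 (1.73 to 4.73), -2.57 at week 2 and -2.87 at week 3. In Uhrf1 KO EBs the H3K27me3 difference was 34.1, 42.7 and 43.3 points, and that of H3K4me3 was -2.23, -5.94 and -4.67 points. The stage that stood apart for H3K4me3 was KO mESC, where the bivalent domains fell behind by 14.6 points (61.0% against 75.6%).

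Of 64 possible paths through the 3 weeks, 59 were seen in WT EBs. The most common was bivalency at all 3 weeks, at 1375 domains (27.5%, 26.3 to 28.8, background 10.8%). H3K4me3 alone at all 3 weeks was found at 714 domains (14.3%), H3K27me3 alone at 102 (2.04%) and no mark at 106 (2.12%). Among non-bivalent domains these shares were 57.2%, 0.147% and 7.93%. A further 1553 domains (31.1%) kept H3K4me3 at all 3 weeks with H3K27me3 at some, 680 (13.6%) had H3K4me3 at some weeks, and 468 (9.36%) never had H3K4me3 but had H3K27me3 at some weeks. Non-bivalent domains had these paths at 13.05%, 17.2% and 3.03%. A mark absent at week 1 was often present later. H3K27me3, whose week 1 list was the narrowest in WT EBs, was present at week 2 or 3 at 64.5% of the 2566 domains without it at week 1, and H3K4me3 at 43.2% of 1190 such domains. Of domains bivalent at week 1, 87.4% were bivalent at week 3, 9.92% had H3K4me3 only, 2.52% H3K27me3 only and 0.145% (3 domains) no mark.

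Among the domains that were bivalent throughout, those with a gene start and the highest WT mESC H3K4me3 mean count lay at Ear10 and Gm8113 (shared domain, chr14:44501601-44504200, mean count 65.8 per bin), Zfp960 (chr17:17178201-17202900, 40.5), Zfp512 (chr5:31749901-31759000, 37.3) and Vcan, which encodes the matrix proteoglycan versican (chr13:89876801-89884600, 33.5). Zfp512 and Zfp960 were bivalent at all 4 KO stages as well, whereas Vcan had H3K4me3 alone at all of them, and Ear10 and Gm8113 had H3K4me3 alone at all but week 2. Ear10, Gm8113 and Zfp960 belong to multigene families, and with 1 alignment kept per read the placement of their reads is uncertain. The corresponding domains with H3K4me3 alone throughout lay at Gm9897 (chr5:4191201-4195100, 41.1), Arid5b (chr10:67735201-67746900, 35.0), Cflar, which encodes an inhibitor of caspase-8 (chr1:58766501-58774300, 29.4), and Pinx1, which encodes a telomerase inhibitor (chr14:64476101-64481300, 29.0). Their domains kept H3K4me3 alone in KO mESC and in KO EBs at all 3 weeks too. H3K27me3 alone throughout was found at D6Mm5e, Cwh43, the serotonin receptor gene Htr1a and the calretinin gene Calb2, with mean counts of 17.0 to 12.1. The no-mark path held just 4 domains with a gene start, at 1700093K21Rik, Tmem56, Als2cr12 and BC048507, with mean counts of 12.9 to 10.6. The domain of Als2cr12 (chr1:58752201-58756100), a neighbour of that of Cflar, had no mark at any KO stage either.

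From each change of state between weeks 1 and 3, the 3 domains with a gene start and the highest mean count are named. The domains at Smarcd2 and Tcam1 (shared), Erbb2ip and 5730508B09Rik had H3K4me3 alone at weeks 2 and 3. Smarcd2 encodes a subunit of BAF chromatin remodelling complexes. The domains at Gm1337, at the calcium-sensing receptor gene Casr and at Ugt8a, which makes a myelin lipid, had H3K27me3 alone at week 3. The 3 domains with no mark at week 3 lay at Hs6st2, a heparan sulfate sulfotransferase gene, at the imprinted gene Nap1l5 and at March10, a ubiquitin ligase gene. At Nap1l5 H3K4me3 alone was present in KO mESC and at all 3 weeks in KO EBs.

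Genes by path were counted for lists of gene families and lineages. Of 3394 genes on bivalent domains, 35.2% lay on domains bivalent at all 3 weeks in WT EBs, and transcription factor families of development stood above this. Pooled over 10 such lists (Hox, Pax, Sox, Forkhead, T-box, Gata, other homeobox, proneural, cardiac and endoderm factors), 113 of 212 genes lay on the bivalent domains and 28 more on bivalent domains of 30 kb or longer. Of the 113 genes, which lay on 108 domains, 93 were on domains bivalent at all 3 weeks (82.3%, 74.2 to 88.2). None was on a domain with H3K4me3 alone at all 3 weeks, which allows a share of up to 3.29% (upper end of the interval), against 602 of all 3394 genes. The lists were chosen with earlier results known, so these shares are descriptions.

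Of 39 homeobox genes of the Lhx, Nkx, Dlx, Msx and related families on the bivalent domains, 35 were on domains bivalent at all 3 weeks in WT EBs. The 4 with the highest H3K4me3 mean count were Otx2 (21.5 per bin), the eye factor Six6 (16.3), the head organizer factor Lhx1 (15.3) and the cortical factor Emx2 (15.0). Otx2 lost H3K27me3 in KO mESC and was bivalent at all 3 weeks in KO EBs, Six6 and Lhx1 were bivalent at all 4 KO stages, and Emx2 had H3K27me3 alone at week 1 in KO EBs and was bivalent at the other KO stages. Lhx5, a paralog of Lhx1, was on the single homeobox domain with H3K27me3 alone throughout. Of 10 Hox genes, on 6 domains, 9 were on domains bivalent throughout and Hoxd1 had H3K27me3 alone at week 2. Hoxa3, Hoxa7, Hoxa9 and Hoxa10 shared 1 domain of 28.6 kb, and 19 other Hox genes lay on bivalent domains of 30 kb or more and were not followed here. Of 9 T-box genes 8 were bivalent throughout, among them Tbx20 of the heart and Eomes of mesendoderm, while T (Brachyury), the factor of the primitive streak, had H3K27me3 alone at week 2.

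Of 16 Forkhead genes 14 were on domains bivalent throughout in WT EBs, and Foxi3 had the highest mean count (16.5). Of 9 endoderm factors 8 were, among them Sox17, Hhex and Prox1, and Gata6 had H3K4me3 alone at week 1 and both marks after it. All 6 blood and endothelial genes were (the hematopoietic factors Tal1 and Gata2, the VEGF receptors Kdr and Flt1, and Sox7 and Fli1). Of 11 Sox genes 8 were, and Sox11, with the highest mean count of them (19.6), had H3K4me3 alone at weeks 1 and 2 and was bivalent at week 3. Of 11 proneural genes 7 were, and Bhlhe23 had H3K27me3 alone at every WT EB and KO stage. Of 8 cardiac factors 5 were, and 3 of 5 Pax genes.

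Signalling genes were divided. Of 13 Wnt ligand genes 9 were on domains bivalent throughout in WT EBs, with the highest mean counts at Wnt3 (16.7), Wnt9b (11.5), Wnt16 (11.2) and Wnt2b (10.3). Of 12 Frizzled receptor and Wnt inhibitor genes 3 were, Sfrp1, Wif1 and Dkk1, and the receptor genes Fzd4 and Fzd6 kept H3K4me3 alone at every EB stage of both genotypes and in KO mESC. Of 11 BMP, TGF-beta and Hedgehog ligand genes 4 were bivalent throughout, Bmp4 among them, and Tgfb2 and Tgfb3 had H3K4me3 alone throughout, in KO as well. Of 6 FGF ligand genes 3 were, Fgf5, Fgf8 and Fgf9, and Fgf2 had H3K4me3 alone throughout. Of 39 potassium channel genes 16 were (41.0%), with Kcnh6 and Kcnj6 on domains with H3K27me3 alone. Of the 5 neuronal and glial structural genes 4 were, among them Snap25 of synaptic vesicle fusion and the tau gene Mapt.

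Genes of chromatin enzymes and of ribosomes lay on these domains at about the share of all genes, 15.2%, or less. Of 26 Polycomb and H3K27 enzyme genes 4 did so and none was bivalent throughout, and Ezh2, the catalytic subunit of PRC2, had H3K4me3 alone at week 1 and both marks at weeks 2 and 3. Of 19 COMPASS genes Mll3 and Ash2l did so, with H3K4me3 alone at all 3 weeks and at weeks 1 and 2. The Ash2l domain also held Kcnu1. Of 20 pluripotency genes 5 lay on bivalent domains. Klf4, Prdm14 and Tbx3 were bivalent throughout, Dppa3 had H3K4me3 alone after week 1, and Fgf4 had H3K27me3 alone at week 1 and both marks after it. Of 76 ribosomal protein genes 5 did so, at domains that may hold other genes as well. Of 19 fibroblast genes, a list kept because stem cells were grown in part on feeder cells, 8 lay on bivalent domains and 4 of those were bivalent throughout, and the part of feeder cells was not tested. The muscle genes Myl7 and Ryr2 lay on them and neither was bivalent throughout.

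**Figure D2:**
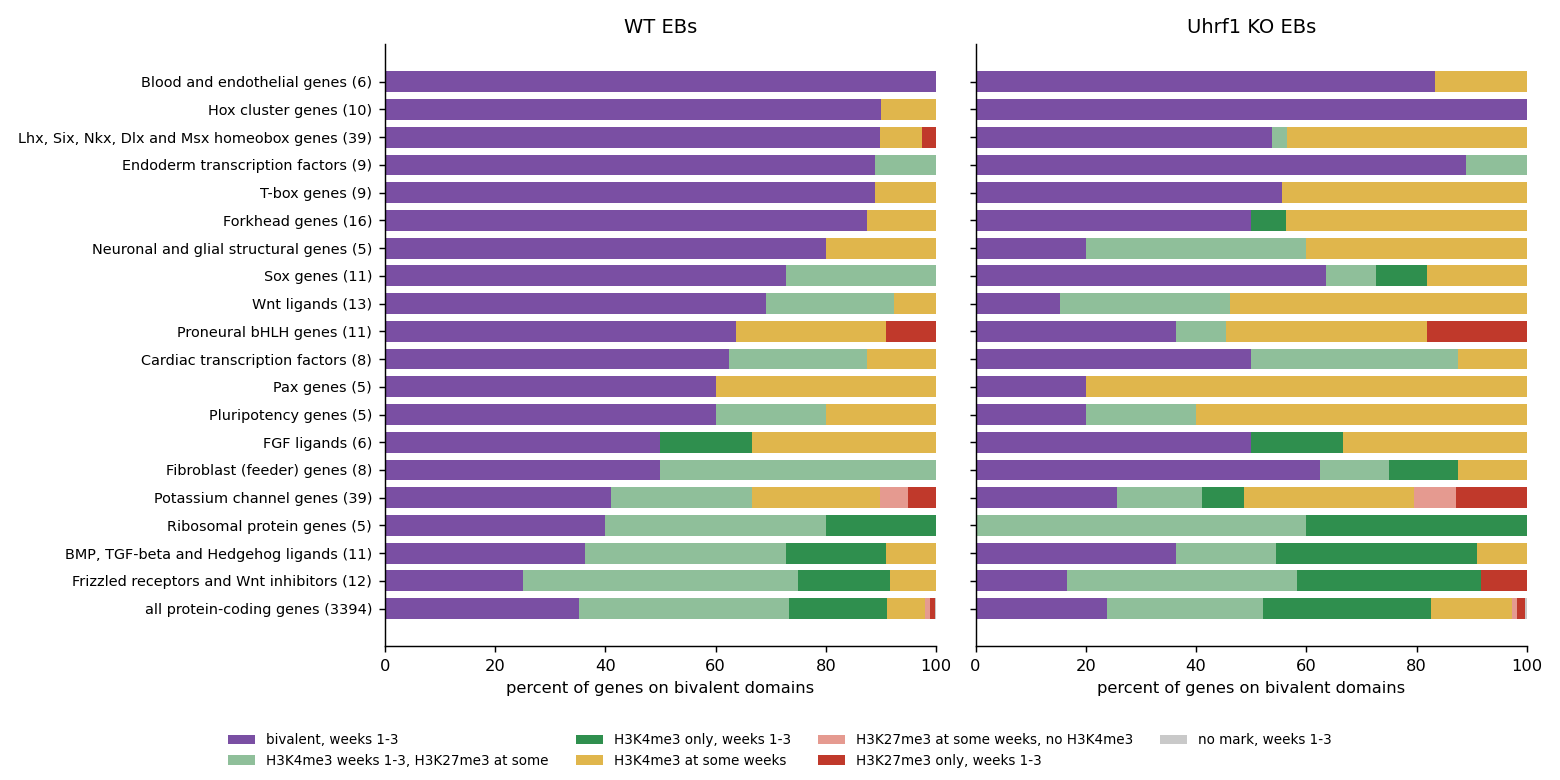
Horizontal bars split the genes of each list that lay on bivalent domains (number in brackets) by their path through weeks 1 to 3, in percent, in WT EBs at left and Uhrf1 KO EBs at right. The purple part, bivalent at all 3 weeks, covers 89.7% of the homeobox genes and 35.2% of all genes on the domains in WT EBs.

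To ask how bivalent domains fared without Uhrf1, the same states were taken from the KO lists. In KO mESC just 432 of 4998 were bivalent (8.64%, 7.90 to 9.46, background 4.68%), 52.4% had H3K4me3 only, 5.84% H3K27me3 only and 33.1% neither mark. H3K4me3 was present at 61.0% (background 70.3%) and H3K27me3 at 14.5% (background 7.30%). Because the domains were chosen for both marks in WT mESC, a second list could only show fewer of them. The KO mESC H3K27me3 list held 722 domains on 84.07 Mb, against 8161 domains on 959.7 Mb in WT mESC. The mean read count was under 1 per bin in 389 of the KO mESC domains (53.9%). The 357 domains of the KO mESC list that touched a bivalent domain had a median mean count of 0.833. With KO mESC domains of a mean count of 1 or more alone, a setting chosen after the data were seen, 323 in place of 724 bivalent domains kept H3K27me3 (6.46%) and 201 were bivalent (4.02%).

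In KO EBs bivalency was more common than in KO mESC, and at each week less common than in WT EBs. At week 1, 28.6% of the domains were bivalent (27.4 to 29.9, background 14.2%), 36.3% had H3K4me3 only, 16.1% H3K27me3 only and 19.0% neither. H3K4me3 was present at 64.9% (background 66.3%) and H3K27me3 at 44.7% (background 22.9%). At week 2, 41.6% were bivalent (40.2 to 43.0, background 20.1%), with H3K4me3 at 80.9% (background 84.7%) and H3K27me3 at 52.7% (background 25.5%). At week 3, 40.8% were bivalent (39.4 to 42.2, background 17.6%), with H3K4me3 at 84.8% (background 87.8%) and H3K27me3 at 48.8% (background 21.1%). Of all bivalent domains, 887 were bivalent at all 3 weeks (17.7%, 16.7 to 18.8, background 6.96%) and 1165 had H3K4me3 alone at all 3 weeks (23.3%). Of non-bivalent domains, 57.3% had H3K4me3 alone at all 3 weeks in KO EBs.

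Domain by domain, the state in KO EBs was that in WT EBs of the same week at 69.1%, 61.5% and 63.2% of the bivalent domains. The KO minus WT difference in bivalency was -12.7 points (-14 to -11.5) at week 1, -3.32 points (-4.80 to -1.84) at week 2 and -18.5 points (-20.0 to -17.1) at week 3. The mark that differed most was not the same at each week. H3K4me3 differed by -11.3 points at week 1, with 644 domains marked in WT alone and 80 in KO alone, and by 0.40 and 1.94 points at weeks 2 and 3. H3K27me3 differed by -3.94, -5.44 and -22.6 points, and at week 3 it marked 1341 domains in WT alone and 211 in KO alone. In non-bivalent domains H3K4me3 was present at 73.0%, 83.1% and 85.7% in WT and 67.1%, 86.9% and 89.5% in KO EBs. H3K27me3 was present there at 8.21%, 9.38% and 13.15% in WT and 10.6%, 10.1% and 5.51% in KO EBs. Which differences are particular to bivalent domains was not tested. The H3K4me3 lists covered 73.4, 154.5 and 165.7 Mb in KO and 107.0, 205.8 and 161.9 Mb in WT EBs at weeks 1, 2 and 3, and the H3K27me3 lists 180.1, 466.8 and 419.9 Mb in KO and 101.3, 1165.0 and 791.4 Mb in WT. At week 1 for H3K27me3 and at week 2 for H3K4me3, the share of bivalent domains and the covered length differed between KO and WT in opposite directions, and at the other weeks in the same direction. With H3K27me3 lists shortened to equal length, the H3K27me3 difference was -15.7, 7.76 and -0.0800 points and that of bivalency -20.2, 6.12 and -0.140, so the week 3 difference was lost and that of week 2 turned. For H3K4me3, the difference at weeks 1, 2 and 3 was -19.9, -11.5 and -1.24 points when at least 50% of a domain had to be covered, and -4.92, -6.96 and 1.10 points with domains at or above the median score of their list, so the direction at weeks 2 and 3 depended on the call. The week 1 difference in bivalency kept its sign under all 3 of these other ways of calling a mark, with -11.4 points at 50% coverage and -6.94 points with domains at or above the median score. H3K4me3 lists were not shortened to equal length, so the part of their covered length in the week 1 difference was not tested.

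Paths in KO followed those in WT to different extents. Of the 1375 domains bivalent throughout in WT EBs, 663 (48.2%, 45.6 to 50.9) were bivalent throughout in KO EBs and 5.38% had H3K4me3 alone throughout. Of the 714 with H3K4me3 alone throughout in WT, 524 (73.4%, 70.0 to 76.5) had the same path in KO. The homeobox genes had a smaller count in KO, 21 of 39 bivalent throughout, and 17 had H3K4me3 at some weeks. The counts bivalent throughout in KO EBs were 10 of 10 Hox genes, 8 of 9 endoderm factors, 5 of 6 blood and endothelial genes, 2 of 13 Wnt ligand genes and 807 of all 3394 genes (against 1196 in WT). Over the 113 developmental factor genes, 56.6% were bivalent throughout in KO (47.4 to 65.4). At week 1, 59.3% of them were bivalent in KO against 89.4% in WT, and 34.5% had H3K27me3 alone against 7.08%. At weeks 2 and 3 the bivalent shares were 85.0% and 92.9% in KO and 85.0% and 94.7% in WT. Of all 3394 genes on the domains, 1280, 1605 and 1537 were on bivalent domains at weeks 1, 2 and 3 in KO, against 1811, 1750 and 2332 in WT, and which week is particular to the developmental factor genes was not tested. The Wnt ligand genes Wnt3a and Wnt9a (shared domain), Wnt3, Wnt7a and Wnt16 were among those with H3K27me3 alone at week 1 in KO and both marks in WT, whereas Wnt5a and Wnt2b had H3K4me3 alone at weeks 1 and 2 in KO. Bmp4, bivalent throughout in WT, had H3K4me3 alone at all 4 KO stages.

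The study had picked 12 genes from these same samples, so their states are no independent evidence. It reported less H3K4me3 and H3K27me3 at Msx2 in KO mESC, and used ChIP-qPCR at differentiation and pluripotency genes beside the ChIP-seq. For KO EBs it reported that Otx2 and Neurod1 did not gain H3K4me3 and that Nkx2-5 and Wnt2b lost H3K27me3. An overlap of at least 1 bp does not measure the level of a mark, so the states below do not test these reports. Msx2 was bivalent at every stage of both genotypes. Otx2 and Neurod1 were bivalent in EBs of both genotypes at all 3 weeks and had H3K4me3 alone in KO mESC. Nkx2-5 was bivalent in EBs of both genotypes and had H3K27me3 alone in KO mESC. Ednra, the endothelin receptor gene, had H3K4me3 alone at week 1 and both marks later in WT, and H3K4me3 alone at all 4 KO stages. Wnt2b was bivalent throughout in WT, in KO mESC and at week 3 in KO EBs. At weeks 1 and 2 in KO EBs Wnt2b had H3K4me3 alone. Of the other 6 genes, Hand2 and Nes lay on bivalent domains of 52.0 and 122.2 kb, Tubb3, Klf2 and Sall1 on domains without H3K27me3, and Tbx5 on none.

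To ask whether marks missing in KO mESC were present again in KO EBs, domains were split by each mark in KO mESC. H3K27me3 was missing from 4274 of the 4998 domains in KO mESC. Of the domains without it, 39.4% (37.9 to 40.8), 48.1% (46.6 to 49.6) and 44.8% (43.3 to 46.3) carried it at weeks 1, 2 and 3 in KO EBs, and 2718 (63.6%, 62.1 to 65.0) at 1 week or more. In WT EBs the same domains carried it at 44.4%, 56.9% and 69.3%, and 80.3% at 1 week or more. With H3K27me3 lists shortened to equal length the shares were 27.7%, 15.0% and 17.7% in KO and 44.4%, 10.4% and 17.6% in WT EBs at weeks 1, 2 and 3, so the order of KO and WT turned at week 2 and the week 3 gap was lost. The 724 domains that kept H3K27me3 in KO mESC carried it at 76.4%, 80.2% and 72.5% in KO EBs and at 73.8%, 65.5% and 84.4% in WT EBs. With KO mESC domains of a mean count of 1 or more, 4675 domains counted as having lost the mark, and 42.2%, 50.6% and 46.9% of them carried it in KO EBs. The KO mESC list was the narrowest of the H3K27me3 lists, and its part in these losses was not tested.

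H3K4me3 was missing from 1948 domains in KO mESC. Of these, 34.6% (32.5 to 36.7), 57.8% (55.6 to 60.0) and 65.0% (62.8 to 67.1) carried it at weeks 1, 2 and 3 in KO EBs, against 51.5%, 59.1% and 62.7% in WT EBs. When at least 50% of a domain had to be covered, in KO mESC as well, more domains counted as without H3K4me3. Of that larger set, 11.5%, 27.6% and 34.4% carried it in KO and 26.6%, 37.9% and 37.8% in WT EBs. The order of KO and WT at week 3 was thus the other way in that set. Of the 1948 domains, 70.2% carried H3K4me3 at 1 week or more in KO and 69.9% in WT EBs. The 3050 domains that kept H3K4me3 in KO mESC carried it at 84.3%, 95.7% and 97.5% in KO EBs and at 92.0%, 94.2% and 95.8% in WT EBs. Kept minus lost was 32.5 points at week 3 in KO (30.3 to 34.7) and 33.1 points in WT (30.8 to 35.4), so the domains that lost H3K4me3 in KO mESC were marked less often in WT EBs as well. Among domains with a gene start alone, 89.9% of those without H3K4me3 in KO mESC carried it at 1 week or more in KO EBs, and the week 3 difference was 12.6 points.

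**Figure D3:**
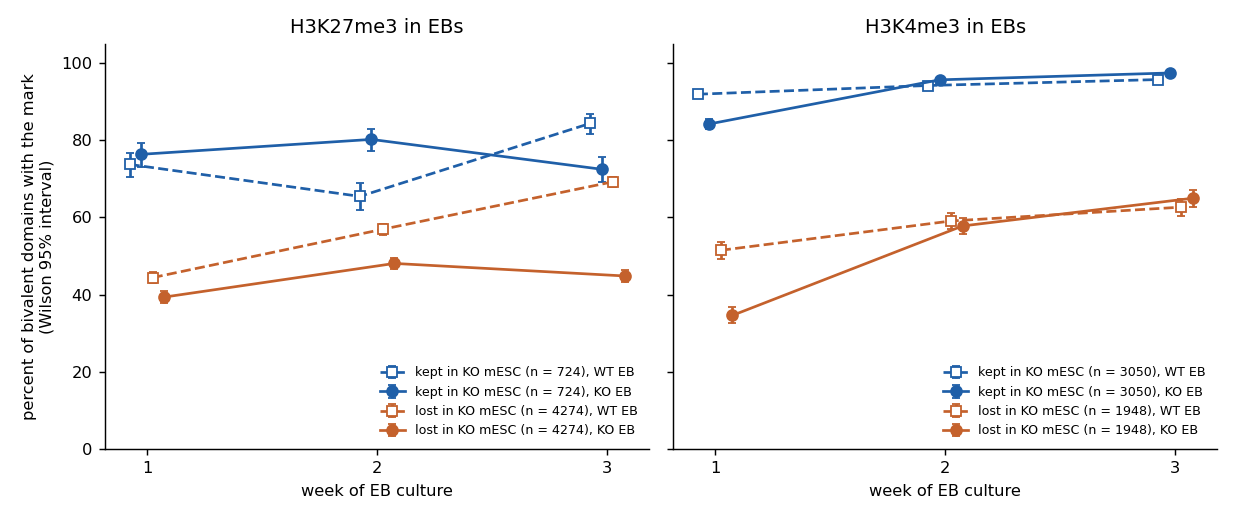
Points give the percent of bivalent domains with H3K27me3 (left) or H3K4me3 (right) at weeks 1 to 3 of EB culture, with Wilson 95% intervals, split by whether the mark was kept (blue) or lost (orange) in Uhrf1 KO mESC, with filled circles for KO EBs and open squares for WT EBs. At week 3, domains that lost H3K27me3 in KO mESC stand at 44.8% in KO and 69.3% in WT EBs (17.7% and 17.6% with lists shortened to equal length), and domains that lost H3K4me3 stand at 65.0% and 62.7%.

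Where the mark was present in KO EBs again, it was mostly where WT EBs had it that week. H3K27me3 lost in KO mESC was present in KO EBs at 72.1%, 62.8% and 58.5% of domains marked in WT EBs at weeks 1, 2 and 3, and at 13.2%, 28.6% and 14% of domains unmarked there. For H3K4me3 the shares were 62.6%, 84.9% and 89.9% against 4.87%, 18.7% and 23.1%. This order held at each week for both marks under each of the other ways of calling a mark, with the least gap for H3K27me3 at week 2, where it was 48.4% against 25.8% with domains at or above the median score.

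The 1656 domains with no mark in KO mESC were not uniform in KO EBs. At least 1 week of bivalency in KO EBs was found for 47.0% (44.7 to 49.4), against 58.2% in WT EBs, and 168 (10.1%) were bivalent at all 3 weeks. Another 191 (11.5%) stayed without a mark in KO EBs, against 82 (4.95%) in WT EBs. Those bivalent at all 3 weeks with the highest mean counts lay at Reep4, which encodes a protein of the endoplasmic reticulum (19.5 per bin), Gm4694 (16.0) and Klhl36 (15.8). The endothelial and blood genes Tal1, Fli1 and Sox7 followed the same path. Of the 113 developmental factor genes, 67 lost H3K27me3 in KO mESC, and 65 of those (97.0%, 89.8 to 99.2) carried it at 1 week or more in KO EBs. Over all 4274 domains that lost it the share was 63.6%, and 64.1% among those with a gene start. The other 46 developmental factor genes (40.7%, against 14.8% of all genes on the domains) kept H3K27me3, among them all 10 Hox genes and 19 of 39 homeobox genes. With KO mESC domains of a mean count of 1 or more, 26 of 113 kept it, with all 10 Hox genes and 9 homeobox genes.

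Which domains lost H3K4me3 in KO mESC varied with their sequence and position. Domains without H3K4me3 in KO mESC were shorter (median 5.2 against 9.1 kb), had a lower WT mESC H3K4me3 mean count (10.5 against 13.1) and less often a gene start (38.3% against 73.9%). The tie to gene starts was not particular to bivalent domains. H3K4me3 was present in KO mESC at 75.1% of bivalent domains with a gene start and 39.8% without. In non-bivalent domains the shares were 93.2% and 51.5%. For H3K27me3 the share with a gene start was 60.1% among domains that lost it and 59.4% among those that kept it. By WT path, H3K4me3 was missing in KO mESC from 31.3% of domains bivalent throughout (28.9 to 33.8), 13.4% of those with H3K4me3 alone throughout (11.1 to 16.1), 85.3% of those with H3K27me3 alone throughout and 82.1% of those with no mark. H3K27me3 was missing from 79.4%, 92.2%, 60.8% and 92.5% of the same sets.

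CpG content, which the choice of domains did not use, was taken as the number of CpG in the most CpG-dense 300 bases of each domain. Its median was 36 in domains bivalent throughout in WT EBs and 36 in those with H3K4me3 alone throughout, 15 in those with H3K27me3 alone, 9 in those with no mark and 26 in non-bivalent domains. The first 2 sets had the same median length, 9.1 kb, while over the whole domain those bivalent throughout had a median of 2.05 CpG per 100 bp and a GC content of 47.0%, against 1.81 and 45.5% in those with H3K4me3 alone throughout. Over 5 equal groups of bivalent domains by this count, the share bivalent at all 3 weeks in WT EBs went from 7.20% in the poorest group (0 to 13 CpG) through 21.2%, 34.7% and 40.3% to 34.1% in the richest (44 to 71 CpG). H3K4me3 was missing in KO mESC from 69.4%, 50%, 30.7%, 23.9% and 20.8% of the groups in this order, and H3K27me3 from 87.4%, 87.6%, 82.8%, 84.0% and 85.8%. Longer domains hold more windows to choose from, and CpG, length and gene starts were not separated.

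**Figure D4:**
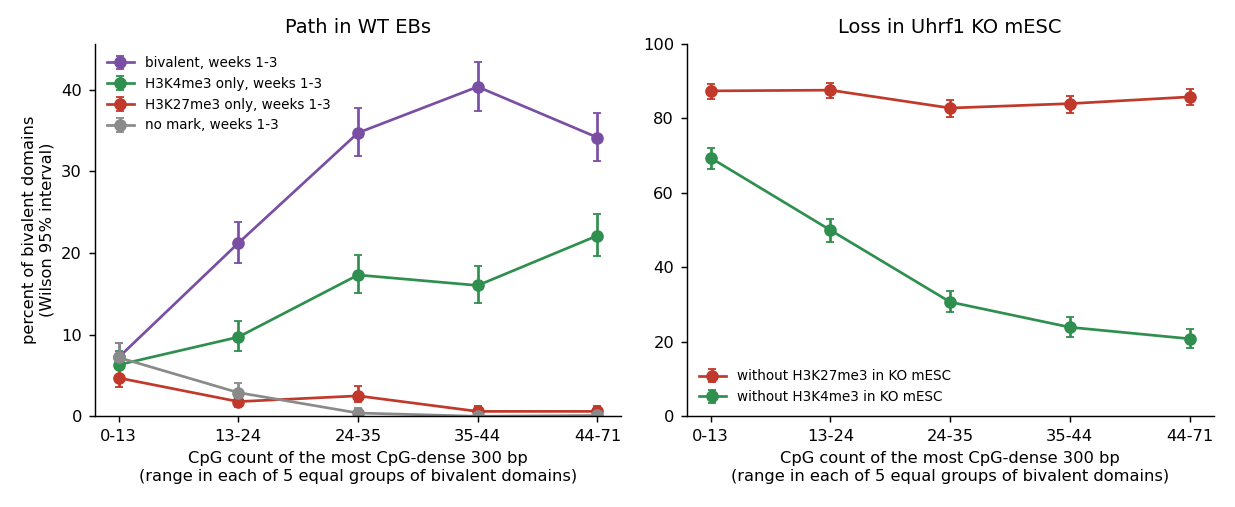
Lines give the percent of bivalent domains on each constant path in WT EBs (left) and without each mark in Uhrf1 KO mESC (right), with Wilson 95% intervals, against the CpG count of the most CpG-dense 300 bases in 5 equal groups of domains. Loss of H3K4me3 goes from 69.4% in the poorest to 20.8% in the richest group, while loss of H3K27me3 stays between 82.8% and 87.6%.

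Other lists of the series were laid over the domains. H3K9me3, a mark of constitutive heterochromatin, overlapped 44.4% of the bivalent domains in WT mESC and 17.9% of the non-bivalent domains, a difference of 26.4 points (24.8 to 28.0). In KO mESC the shares were 44.2% and 40.8%, and the difference 3.43 points (1.71 to 5.14). Within the bivalent domains, WT H3K9me3 overlapped 44.8% of those bivalent throughout, 22.7% of those with H3K4me3 alone throughout and 78.2% of those that had H3K27me3 at some weeks and never H3K4me3. The H3K9me3 lists covered 987.6 Mb in WT and 1085.9 Mb in KO, in domains of median length 37.8 and 140.4 kb. Uhrf1 windows of 10 kb overlapped 5.06% of bivalent and 1.32% of non-bivalent domains, a difference of 3.74 points (3.11 to 4.42). By path they overlapped 3.42% of domains bivalent throughout and 15.8% of those that never had H3K4me3 but had H3K27me3 at some weeks, 12.4 points more (9.17 to 16.1).

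Summits of the pluripotency factors were about as common in bivalent as in non-bivalent domains for Sox2 in WT mESC (12.1% and 12.2%, difference -0.0619 points, -1.18 to 1.08), and less common for Oct4 (17.4% and 20.3%). In KO mESC, where the Sox2 list held 20755 summits against 5190 in WT, Sox2 summits lay in 38.5% of bivalent and 45.9% of non-bivalent domains. Among the bivalent domains in KO mESC they lay in 44.0% of those bivalent throughout and 49.2% of those with H3K4me3 alone throughout (difference 5.16 points, 0.655 to 9.65). They lay in 20.8% of those with no mark. In WT mESC the order was the other way, with Sox2 summits in 15.9% of domains bivalent throughout and 9.38% of those with H3K4me3 alone throughout (difference -6.54 points, -9.34 to -3.55). Median length was 9.1 kb in both of these sets and 3.9 kb in domains with no mark, and the part of length was not tested. On chromosome X lay 36 of 714 domains with H3K4me3 alone throughout (5.04%) and 6 of 1375 bivalent throughout (0.436%), beside 4.03% of the non-bivalent domains.

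**Figure D5:**
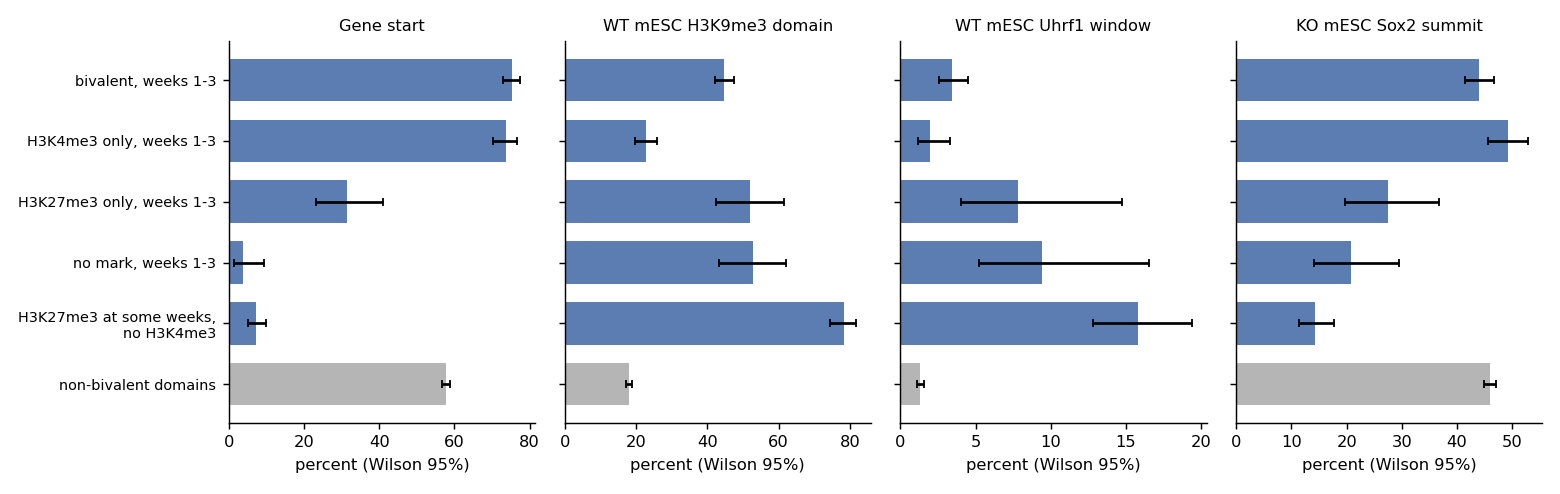
Bars give the percent of domains with a gene start, a WT mESC H3K9me3 domain, a WT mESC Uhrf1 window or a KO mESC Sox2 summit, with Wilson 95% intervals, for 5 paths of the bivalent domains in WT EBs (blue) and for the non-bivalent domains (grey). Domains that had H3K27me3 at some weeks and never H3K4me3 in WT EBs have few gene starts, at 7.26%, and the largest share with H3K9me3, at 78.2%. Domain length differed between the sets (median 9.1 kb bivalent throughout, 3.9 kb with no mark), and its part was not tested.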

How the data were processed

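ChIP-seq of histone marks, Uhrf1 and pluripotency factors was done in WT and Uhrf1 KO mESC and EBs, and lists existed for 13 WT and 12 KO samples. Reads were aligned to mm9 with Bowtie2 2.1.0, as the submitters' processing notes give it, with 1 alignment kept per read. The authors called histone domains per library with RSEG against input and factor summits with MACS. Each deposited histone domain carries a signal, which is the average number of reads per bin of 350 to 1800 bp, and for which scaling to mapped reads is not stated, and a score that the authors' caller sums over bins and that grows with domain length. Deposited factor summits carry a signal, the reads at the summit, and Uhrf1 windows of 10 kb carry no value. Total reads per library were not used here, and 8 input samples were not analysed here, so depth is known only through the length each list covers and could change which domains were called. Whether the libraries came from separate cultures is not given in the sources used here.

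Overlaps, CpG counts and intervals were computed in Python 3.11.15 (numpy 2.4.6, scipy 1.17.1, matplotlib 3.10.9 for the plots). Scripts were tested on simulated data. Chromosome ends were checked for 530 pairs of list and chromosome, and 0 regions ran past an end. Genes were the 22380 protein-coding genes of GENCODE M1 on NCBIM37, with the outermost annotated 5′ end as the gene start, and belonged to a domain when the start was inside or within 1 kb. A called mark means an overlap of at least 1 bp, and background means the share called among all 13850 WT mESC H3K4me3 domains under 30 kb. Alternatives asked for 50% coverage, for domains at or above the median score, for domains covered 50% by WT mESC H3K27me3, for no length limit, for gene starts, and for H3K27me3 lists shortened to equal covered length.

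Genes were named by rule. For each constant path in WT EBs the 4 domains with a gene start and the highest WT mESC H3K4me3 mean count were taken, and 3 each for domains bivalent at week 1 with another state at week 3 and for domains without a mark in KO mESC that were bivalent at all 3 weeks in KO EBs. In each gene list up to 4 genes per path with the highest mean count could be named, besides the 12 genes the study picked. Single genes named outside this rule (Lhx5, Hoxd1, T, Gata6, Sox11, Bmp4, Wnt5a, Wnt7a and the exceptions within a list) were chosen after their values were seen. The domains and the gene lists were chosen with earlier results of these data known.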

Additional observations from a re-analysis of the deposited data

Results flagged for a closer look

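The H3K4me3 share of the bivalent domains was set apart because its KO minus WT difference changed sign between weeks. It was lower in Uhrf1 KO EBs at week 1, by -11.3 percentage points (64.9% against 76.2%), and higher at week 2, by 0.40 points (80.9% against 80.5%), and at week 3, by 1.94 points (84.8% against 82.9%). The difference between the weeks was not tested, since each value rests on 1 library per genotype. The interval at week 2, -0.448 to 1.25 points, includes 0. The H3K4me3 share of non-bivalent domains was also lower in KO at week 1 (67.1% against 73.0%). It was higher in KO at week 2 (86.9% against 83.1%) and week 3 (89.5% against 85.7%). At 50% coverage of the domain the values were -19.9, -11.5 and -1.24 points.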

How the results depend on the processing

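Of 66 values, from 11 results under 6 alternatives, 12 stayed within the interval of the value reported and 54 moved outside it. Some of the 12 were fixed by construction, namely WT week 1 bivalency and both H3K4me3 results under shortened H3K27me3 lists. The KO minus WT differences are not among the 66 values, and that in bivalency at week 2 turned from -3.32 to 6.12 points with shortened lists. Shares are given in the order WT EBs at weeks 1, 2 and 3 and at all 3 weeks, then KO EBs at weeks 1, 2 and 3. With at least 50% of a domain covered, bivalent shares were 18.1%, 26.7%, 33.8% and 10.2%, then 6.76%, 17.6% and 22.4%. H3K27me3 and H3K4me3 missing in KO mESC were present at 1 week or more in KO EBs at 56.2% and 41.1% of domains, the kept minus lost difference in H3K4me3 at week 3 in KO EBs was 39.7 points, and the H3K27me3 difference of bivalent and non-bivalent domains at week 3 in WT EBs was 54.5 points. With domains at or above the median score, shares were 17.0%, 25.5%, 30.7% and 7.36%, then 10.1%, 20.4% and 19.0%, presence again was 50.2% and 60.6%, and the differences 36.4 and 47.5 points. Both settings ask more of a call and so lower the shares. They also applied to KO mESC, so more domains counted as without each mark there. With domains covered 50% by WT mESC H3K27me3, shares were 43.6%, 47.0%, 61.0% and 29.9%, then 43.6% and 43.1% for KO weeks 2 and 3, presence of H3K27me3 again was 66.9% and its difference 61.8 points. Without a length limit, shares were 44.4%, 60.7% (week 3) and 29.4%, then 31.9%, 43.5% and 42.2%. With gene starts only, shares were 52.2%, 51.7%, 68.6% and 34.5%, then 36.5%, 46.5% and 44.6%, presence of H3K4me3 again was 89.9%, and the differences 12.6 and 60.5 points. The cause was not tested for these 3 settings. With H3K27me3 lists shortened to the WT week 1 length, shares were 11.1%, 20.0% and 5.90% for WT weeks 2, 3 and all 3, then 21.2%, 17.2% and 19.9%, presence of H3K27me3 again was 38.5% and its difference 20.0 points, since shorter lists touch fewer domains. With KO mESC H3K27me3 domains of a mean count of 1 or more, chosen after seeing the data, presence again was 65.6%. No paired analysis was possible because each group holds 1 library. For the same reason no library could be left out, and read depth, which was not used here, cannot be told apart from the breadth of the lists.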

Other observations

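Bivalent domains of 30 kb or more, which the length limit left out, numbered 472. At all 3 weeks 48.9% of them were bivalent in WT EBs and 43.9% in KO EBs, against 27.5% and 17.7% of the shorter domains. Longer domains have more sequence to overlap a list, and the part of length was not tested. Of 39 Hox genes, 19 lay on such long domains, 10 on the shorter bivalent domains and 10 on no WT mESC H3K4me3 domain.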
